A study of Saccharomyces cerevisiae with 180 samples.

Results

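Among 86 haploid yeast segregants, the 25 with the highest HAP1 transcript level were compared with the 25 with the lowest. HAP1 encodes a heme-responsive transcription factor of Saccharomyces cerevisiae. The segregants come from a cross of the laboratory strain BY4716, which is isogenic to S288c, with RM11-1a, a haploid derivative of a vineyard isolate. Each segregant is a strain of its own, grown once and hybridised on 2 arrays with the dyes exchanged, always against the same pool of BY4716 RNA. The whole series holds 90 cultures on 180 arrays: the 86 segregants, 2 cultures of BY4716 and 2 of RM11, which was taken as the parental strain RM11-1a. BY4716 is of mating type alpha and lacks LYS2, whereas RM11 is of mating type a with deletions of HO, LEU2 and URA3, so all of these loci vary among the segregants. The labels give no treatment, and growth conditions are not given in the sources used here.

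The mean of the 2 arrays gave the culture value, and the 36 segregants between the groups entered neither of them. The groups are defined by the level of 1 transcript and not by genotype. The HAP1 level, which chose the groups, is described without a test. Values are log2 ratios of the culture over the BY4716 pool, so 0 means the level of the pool and a difference of 1 is a doubling. In a whole culture, less transcript per cell and fewer cells that make it cannot be told apart.

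HAP1 binds heme, whose synthesis needs oxygen, and then activates genes of respiration, of sterol synthesis and of defence against reactive compounds. One of its known targets is ROX1, the repressor of genes used at low oxygen, so HAP1 takes part in oxygen sensing both directly and through ROX1. Strains of the S288c family carry a Ty1 transposon within the coding region of HAP1, which lowers the activity of the protein while a transcript is still made. Transcript level and activity of HAP1 therefore need not rank strains in the same order, and the arrays measured the transcript, through 1 probe. Whether the insertion alters the signal of that probe was not tested.

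HAP1 had values on both arrays of every segregant. In the high group the culture values ran from -0.20 to 0.78 with a median of 0.01, and in the low group from -1.56 to -0.92 with a median of -1.15. The levels formed a continuous series, and no gap marks the edges of the groups. The lowest member of the high group stood at -0.198 and the next segregant below it at -0.218. At the other edge, the highest member of the low group stood at -0.922 and the next segregant above it at -0.871. The BY4716 cultures were at 0.22 and 0.07, within the range of the high group, and the RM11 cultures at -1.62 and -1.97, below every segregant.

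**Figure D1:**
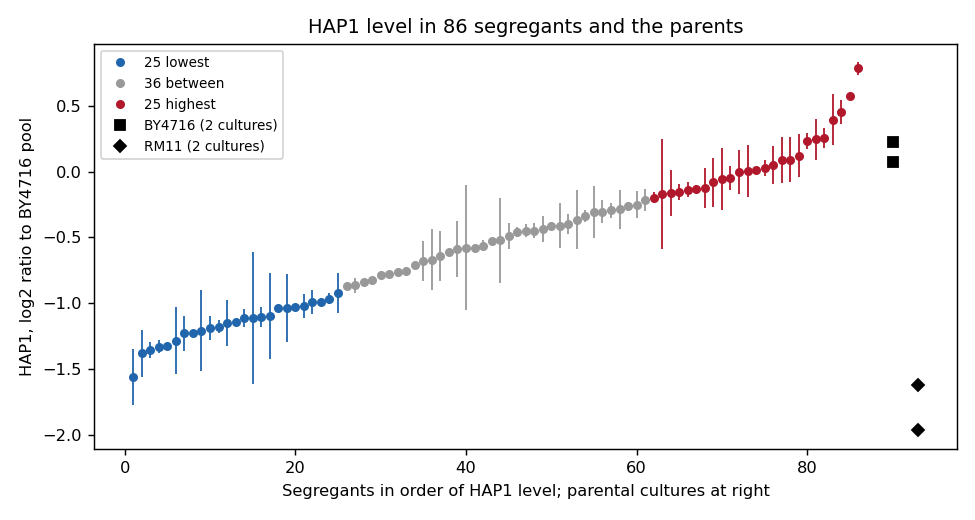
HAP1 level (log2 ratio to the BY4716 pool, vertical axis) of the 86 segregants in rank order; points are culture values, vertical lines join the 2 arrays of a culture, and black symbols are the parental cultures. The 25 lowest end at -0.922 and the 25 highest begin at -0.198, with 36 segregants between them and no gap at either edge.

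The rank was repeatable between the arrays of a culture. When segregants were ranked on the Cy3-titled arrays alone, HAP1 on the Cy5-titled arrays averaged -0.03 ± 0.40 (SD, n = 25) in the 25 highest and -1.13 ± 0.23 (SD, n = 25) in the 25 lowest. That is a difference of 1.10. Ranked on the Cy5-titled arrays and read on the Cy3-titled ones, the difference was also 1.10. Both arrays of a culture share its RNA, so these values describe the repeatability of the measurement, and no test is drawn from them. The arrays of a culture correlated across genes with a median r of 0.739 in the high group and 0.762 in the low group, and the fewest values on an array of a culture had medians of 6046 and 6055. These r values run across genes, which are no replicates of each other.

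Of 4949 genes tested with limma, which leaves out HAP1, 368 were higher and 489 lower in the high-HAP1 segregants at a Benjamini-Hochberg adjusted p under 0.05. This is 17.3 percent of the genes tested, 7.44 percent higher and 9.88 percent lower, and these shares are the background for each list below. The p-values measure the spread between segregants, each of them a separate strain. These totals depended on the setting. Ranked on the Cy3-titled arrays and compared on the Cy5-titled ones, 495 genes were called, and 391 the other way round, each from single arrays. With the levels of LEU2, URA3, STE2 and DSE1 as covariates 374 genes were called.

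Ergosterol, the sterol of yeast membranes, is made from acetyl-CoA by a long series of enzymes, several of which use oxygen or heme. Its genes were lower in the high-HAP1 segregants: 21 of 26 passed as lower and 0 as higher, with a median difference of -0.394 against -0.0136 over all genes tested. HMG1, which encodes a form of the rate-limiting HMG-CoA reductase, ran from -0.25 to 1.17 with a median of 0.18 in the high group and from 0.79 to 2.02 with a median of 1.30 in the low group. The groups overlapped in part: 23 of 25 high-HAP1 segregants lay below every low-HAP1 segregant, and 15 of 25 low-HAP1 segregants above every high-HAP1 one. The difference was -1.11 (SE 0.09, limma adjusted p = 5.83e-14), or 2.15-fold. CYB5, cytochrome b5, an electron donor in sterol and fatty acid synthesis, had medians of 0.02 and 1.16 and differed by -1.15 (SE 0.12, adjusted p = 8.99e-10). CYB5 ran from -0.60 to 0.66 in the high group and from -0.495 to 2.00 in the low group, so 22 of 25 low-HAP1 segregants lay above every high-HAP1 one, and 2 of 25 high-HAP1 segregants below every low-HAP1 one.

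Among the genes that act on the sterol rings, ERG25, the C-4 methyl sterol oxidase, ran from -0.66 to 0.50 in the high group and from 0.09 to 1.35 in the low group, and differed by -0.77 (SE 0.08, adjusted p = 1.68e-09). ERG28, a scaffold for the demethylation enzymes, differed by -0.76 (adjusted p = 2.12e-05). ERG5, the C-22 sterol desaturase, a cytochrome P450, differed by -0.69 (SE 0.09, adjusted p = 1.37e-07). In ERG5 19 of 25 high-HAP1 segregants lay below every low-HAP1 one, while the highest of them, at 1.91, lay above all of the low group. ERG11, the lanosterol demethylase, another cytochrome P450 and the target of azole drugs, had medians of 0.37 and 0.91 and differed by -0.53 (SE 0.10, adjusted p = 0.000346). ERG2 and ERG3, which act late on the sterol rings, differed by -0.58 and -0.56, and the methyltransferase ERG6 by -0.48.

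Further called genes of the list had smaller differences than ERG6. IDI1, the isopentenyl diphosphate isomerase, differed by -0.42 with a small spread (SE 0.05, adjusted p = 5.59e-09). MVD1 stood at -0.48, ERG9, the squalene synthase, at -0.47, ERG20 at -0.41, ERG7 at -0.37, ERG10 at -0.36 and ERG13 at -0.33. ERG29 differed by -0.38, ERG27 by -0.36, ERG26 by -0.33 and ERG24 by -0.26. ERG12 stood at -0.26 with an adjusted p of 0.0477, and this call was lost under 5 settings given in the closing section. The 5 members that did not pass were ERG8 at -0.18, NCP1 at -0.15, ERG4 at -0.08, HMG2, the second HMG-CoA reductase, at -0.05 and ERG1, the squalene epoxidase, at 0.00. ACS2, the acetyl-CoA synthetase that supplies the precursor, is no member of the list and was looked at after its values were seen. It had medians of 0.28 in the high group and 1.15 in the low group and differed by -0.76 (SE 0.08, adjusted p = 8.99e-10).

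**Figure D2:**
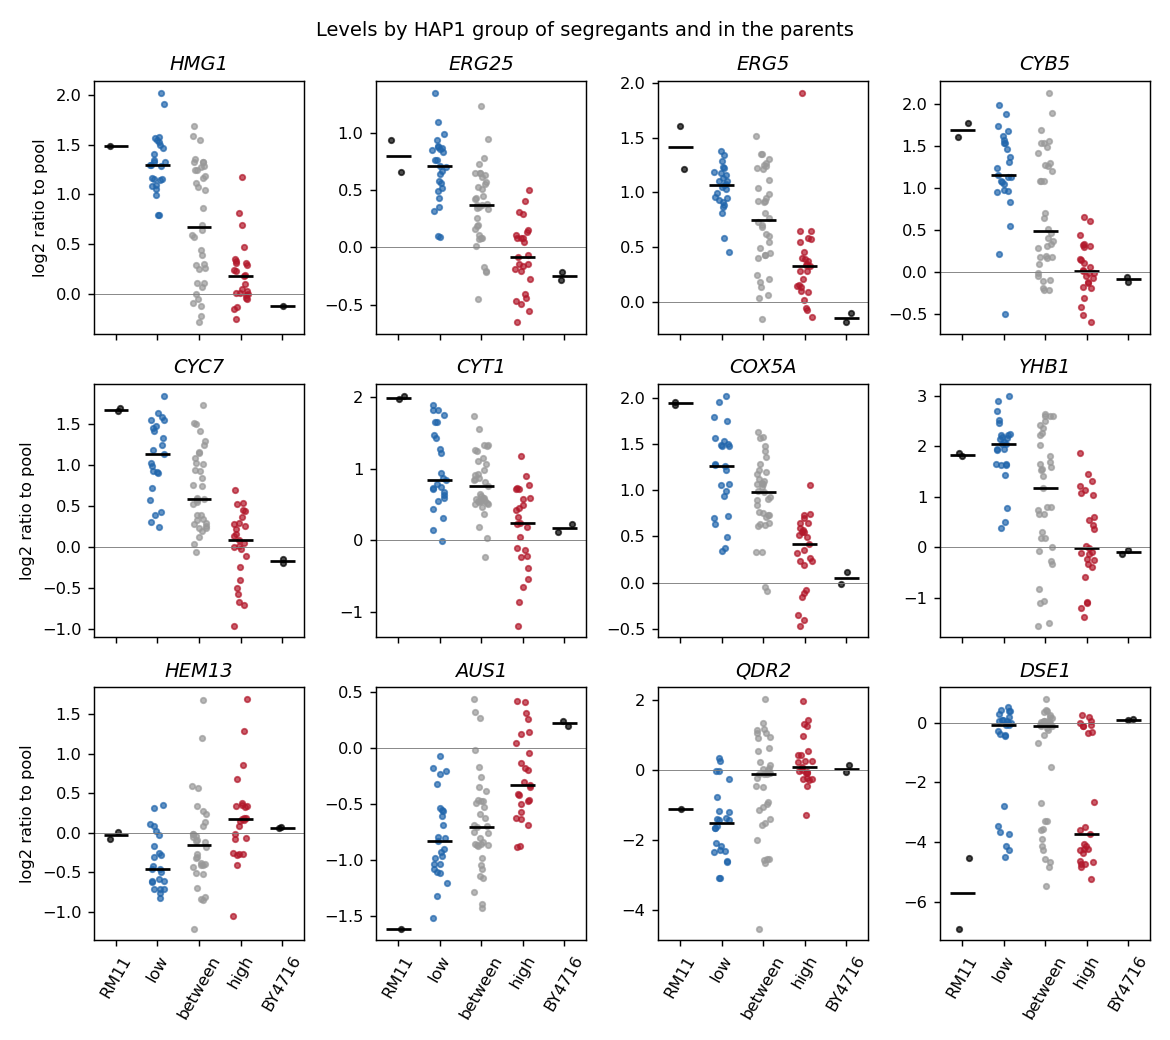
Culture values (log2 ratio to the BY4716 pool, vertical axes) of 12 genes in RM11, in the low, between and high HAP1 groups of segregants and in BY4716; each point is a culture and the bar is the median. HMG1 falls from a median of 1.30 in the low group to 0.18 in the high group, AUS1 rises from -0.83 to -0.33, and the medians of DSE1 are -3.725 in the high group and -0.07 in the low group.

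Genes that control, store or import sterol went both ways, with 5 of 12 higher and 2 lower. The regulators UPC2 and ECM22, which activate sterol genes when sterol is low, were higher by 0.31 (SE 0.08, adjusted p = 0.00754) and 0.30 (SE 0.06, adjusted p = 0.000865). ECM22, YLR228C by systematic name, lies on the same chromosome arm as HAP1. AUS1, a sterol importer used without oxygen, ran from -0.89 to 0.42 in the high group and from -1.52 to -0.07 in the low group, and was higher by 0.53 (SE 0.11, adjusted p = 0.000407). The 2 sterol ester synthases moved apart. ARE1 was higher by 0.40 (SE 0.09, adjusted p = 0.00299) and ARE2, the main form in air, was lower by 0.68 (log2 -0.68, SE 0.14, adjusted p = 0.000576). OSH6 was higher by 0.22, and NSG2, a regulator of HMG-CoA reductase stability, stood at -0.32. The other 5 members did not pass, SUT1 at 0.22, PDR11 and SUT2 at 0.10, NSG1 at -0.03 and OSH7 at -0.12.

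**Figure D3:**
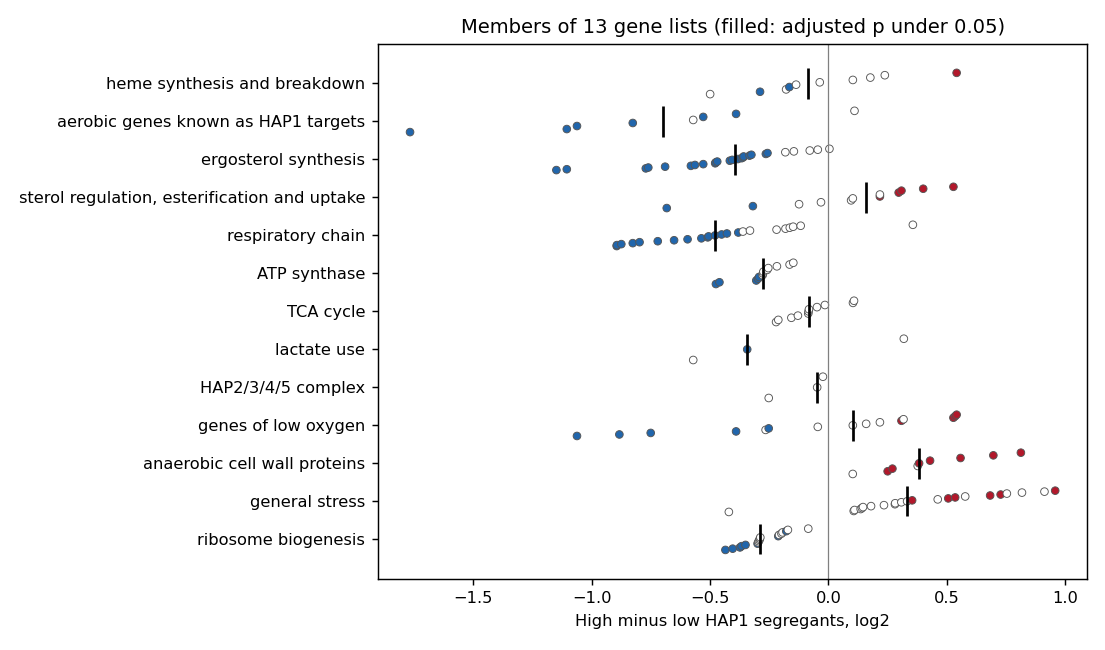
Difference between high and low HAP1 segregants (log2, horizontal axis) for every tested member of 13 gene lists; filled points passed at an adjusted p under 0.05, red higher and blue lower, open points did not, and black bars are list medians. Ergosterol synthesis (median -0.394) and the respiratory chain (-0.479) lie to the left, the TCA cycle (-0.0841) near 0, and the anaerobic cell wall proteins (0.383) to the right.

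Among 9 aerobic genes known as targets of HAP1, 8 were tested, and 6 passed as lower and 0 as higher, with a median of -0.699. YHB1, the flavohemoglobin that detoxifies nitric oxide, had the largest size of these. It ran from -1.39 to 1.865 with a median of -0.02 in the high group and from 0.38 to 3.00 with a median of 2.04 in the low group, a difference of -1.77 (SE 0.21, adjusted p = 3.09e-08), or 3.40-fold. CYC7, the minor form of cytochrome c, had medians of 0.08 and 1.13 and differed by -1.06 (SE 0.13, adjusted p = 2.89e-08). CYT1, cytochrome c1, differed by -0.83 (SE 0.16, adjusted p = 0.000234) and the repressor gene ROX1 by -0.39 (SE 0.12, adjusted p = 0.0204). Both groups overlapped widely for ROX1, from -1.51 to 1.41 in the high group and from -0.74 to 0.71 in the low group. Ranked on the Cy3-titled arrays and read on the Cy5-titled ones, ROX1 was at -0.16 with an adjusted p of 0.57. HMG1 and ERG11, also among the 6, were already counted with the ergosterol genes. CYT1 is counted again in the respiratory chain, and CYC7 and ROX1 again among the genes of low oxygen. The counts of these lists are therefore not separate from each other.

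CYC1, the major form of cytochrome c, was not tested, since both arrays gave a value in 19 high-HAP1 and 21 low-HAP1 segregants, where at least 20 were needed in each group. Its values ran from -0.50 to 0.90 with a median of 0.12 in the high group and from 0.16 to 2.47 with a median of 1.24 in the low group. With at least 10 segregants per group required, CYC1 differed by -1.21 (SE 0.16, limma adjusted p = 5.12e-07). CYB2, the lactate dehydrogenase that feeds electrons to cytochrome c, ran from -1.49 to 4.70 and from -0.98 to 3.02 and stood at -0.57 (SE 0.37, adjusted p = 0.266). CYB2 was at -1.11 with an adjusted p of 0.028 when segregants were ranked on the Cy3-titled arrays and read on the Cy5-titled ones. It was at -0.94 with an adjusted p of 0.025 when the mean of the general stress list was a covariate. CYB2 was called under no other alternative setting. With at least 10 segregants per group required, it was at -0.57 (limma adjusted p = 0.275). CTT1, the cytosolic catalase, stood at 0.11 (SE 0.47, adjusted p = 0.896), with ranges from -2.15 to 2.74 and from -2.39 to 4.04.

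In the respiratory chain, which passes electrons from NADH and succinate to oxygen, 15 of 23 tested genes passed as lower and 0 as higher, with a median of -0.479. The members that passed belonged to cytochrome bc1 and cytochrome oxidase, with the external NADH dehydrogenase NDE1 at -0.89 (SE 0.18, adjusted p = 0.000495). RIP1, the iron-sulfur subunit of bc1, had medians of 0.56 and 1.26 and differed by -0.89 (SE 0.16, adjusted p = 5.86e-05). QCR6 stood at -0.72, COR1 at -0.51, QCR9 at -0.48, QCR2 at -0.43 and QCR8 at -0.38. COX5A, the aerobic form of subunit 5 of cytochrome oxidase, ran from -0.47 to 1.06 in the high group and from 0.34 to 2.02 in the low group and differed by -0.87 (SE 0.12, adjusted p = 1.03e-06). COX8 differed by -0.80, COX12 by -0.65, COX13 by -0.595, COX4 by -0.54, COX7 by -0.51 and COX6 by -0.45. Succinate dehydrogenase had no member past the test, with SDH2 at -0.36, SDH3 at -0.18, SDH1 at -0.16 and SDH4 at -0.12. NDI1 was at -0.22, QCR10 at -0.33, COX9 at -0.15 and NDE2 at 0.36, none past the test.

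The ATP synthase, which uses the gradient the chain builds, had 5 of 13 tested genes lower, ATP20 at -0.46, INH1, the synthase inhibitor, at -0.48, ATP4 and ATP16 at -0.30 and TIM11 at -0.29, and 0 higher. Its median was -0.276. In the TCA cycle, which delivers the electrons, 0 of 11 genes passed by limma, 0 of them at an unadjusted p under 0.05, and their differences lay between -0.221 and 0.108. The HAP2/3/4/5 complex, a separate heme-related activator of respiration, had 0 of 3 tested genes past the test, with HAP4 at -0.25 (limma adjusted p = 0.0973), the 1 member at an unadjusted p under 0.05. Under 6 of the 17 alternative settings 1 member of the complex passed. For lactate use, DLD1, the D-lactate dehydrogenase, was lower (log2 -0.34, SE 0.07, adjusted p = 0.000775), and the transporter gene JEN1 was at 0.32 with an adjusted p of 0.22.

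Genes of heme synthesis went both ways: of 10 tested 1 was higher and 2 were lower, 30 percent against the background of 17.3 percent. HEM13, coproporphyrinogen oxidase, which uses oxygen and is repressed in air through ROX1, ran from -1.05 to 1.69 with a median of 0.17 in the high group. In the low group it ran from -0.82 to 0.35 with a median of -0.45. The difference was 0.54 (SE 0.13, adjusted p = 0.00474), and the groups overlapped. HEM2, porphobilinogen synthase, was lower (log2 -0.29, SE 0.07, adjusted p = 0.0032), and HEM4 was lower by 0.17 (log2 -0.17, adjusted p = 0.0233). The call of HEM4 was lost with 20 and with 43 segregants per group (limma adjusted p = 0.0533 and 0.0974). It was also lost in both rankings on arrays of 1 title dye (adjusted p = 0.099 and 0.0934) and with array weights (0.0659). HEM3, porphobilinogen deaminase, had medians of -1.40 and -0.30 and ranges from -2.85 to 0.45 and from -2.29 to 0.43, and its difference of -0.50 had an adjusted p of 0.142. HEM1, the first enzyme, was at 0.10, HEM12 at -0.04, HEM14 at 0.24 and HEM15, ferrochelatase, at 0.18, none past the test. COX10 and COX15, which make heme A, were at -0.18 and -0.14. HMX1, of heme breakdown, had too few values for a test, with medians of -0.002 in the high group and 1.825 in the low group. With at least 10 segregants per group required, 4 genes of the list were called.

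Of 15 genes of low oxygen, 4 were higher and 5 lower. Higher were HEM13, UPC2 and AUS1, given above, and COX5B, the low-oxygen form of cytochrome oxidase subunit 5, by 0.53 (SE 0.19, adjusted p = 0.0477). COX5B lost its call under 9 alternative settings, with values from 0.31 to 0.63. Lower were CYC7 and ROX1, given above, MOT3, a repressor (log2 -0.25), OLE1, the fatty acid desaturase, and ANB1. OLE1 ran from -1.15 to 0.97 in the high group and from 0.09 to 1.23 in the low group and differed by -0.75 (SE 0.12, adjusted p = 1.01e-05). ANB1, a form of the translation factor eIF5A known for its repression in air, differed by -0.88 (SE 0.12, adjusted p = 9.42e-07). HYP2 encodes the aerobic form of the same factor and is nearly identical to ANB1, so the 2 probes may share signal. HYP2 ran from -1.37 to 0.67 in the high group and from 0.71 to 1.51 in the low group, with no overlap, a difference of -1.04 (SE 0.11, adjusted p = 8.99e-10). MTC7, the next gene by systematic name and chosen after its values were seen, differed by -0.83 (SE 0.09). The remaining members, AAC3, HMG2, SUT1, PDR11, FET4 and CPR1, did not pass and lay between -0.27 and 0.32.

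The anaerobic cell wall proteins of the TIR, DAN and PAU families had 7 of 9 tested genes higher and 0 lower, with a median of 0.383. TIR2 was higher by 0.81 (SE 0.23, adjusted p = 0.0132), TIR1 by 0.70, PAU1 by 0.56 (SE 0.09, adjusted p = 2.12e-05), DAN4 by 0.43, PAU4 by 0.38, PAU3 by 0.27 and PAU5 by 0.25. DAN1 at 0.38 and PAU7 at 0.10 did not pass. The PAU genes are close copies of each other, so their probes need not be separate cases. In PAU1 the high group ran from -0.49 to 0.97 and the low group from -1.085 to 0.01. Of 15 members, 6 were not tested. With the levels of STE2 and FUS1 and the stress mean as covariates, 3 genes were called.

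The 36 segregants between the groups were ranked with the others but did not enter the test. Their median lay between the medians of both groups for 58 of the 61 called genes of the 9 heme, sterol, respiration and oxygen lists, which hold 107 genes, 97 of them tested. The exceptions were ERG10, ERG13 and HEM4. The same order held for 15 of the 15 largest rises and 15 of the 15 largest falls, so it was not particular to the lists. For HMG1 these 36 segregants ran from -0.29 to 1.69 with a median of 0.67, over nearly the whole range of both groups. YHB1 likewise ran from -1.55 to 2.63 in them.

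Outside these lists, the genes with the largest rises included QDR2, a multidrug transporter, which ran from -1.28 to 1.96 in the high group and from -3.08 to 0.34 in the low group. It was higher by 1.76 (SE 0.25, adjusted p = 1.33e-06), or 3.39-fold. ZPS1 was higher by 1.78 (SE 0.45, adjusted p = 0.00579), the alcohol dehydrogenase ADH4 by 1.57 (SE 0.44, adjusted p = 0.0119) and the high-affinity zinc transporter ZRT1 by 1.26 (SE 0.29, adjusted p = 0.00216). The low-affinity zinc transporter ZRT2, chosen after its values were seen, was at -0.33 (adjusted p = 0.108). The groups overlapped widely for ADH4, from -0.815 to 4.54 and from -1.53 to 4.265. The arginine synthesis genes ARG1 and ARG3 were higher by 1.665 (SE 0.46) and 1.24 (SE 0.36), and ATG41, which acts in autophagy, by 1.49. YOR387C was higher by 1.25. With 43 segregants per group, no call was made for ZPS1, ADH4, ZRT1, YOR387C and ARG3.

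Reading frames of retrotransposons made up a further share of the largest rises, and as repeated elements their copies cannot be told apart by these probes. YMR046C, a Ty1 frame, was higher by 1.08 (SE 0.20, adjusted p = 0.000125), YBL005W-A, another Ty1 frame, by 1.00 and YIL082W-A, a Ty3 frame, by 1.57 (adjusted p = 0.0326). YIL082W-A lost its call under 9 settings. YER138W-A and YDR034C-A were higher by 1.06 (SE 0.12, adjusted p = 7.68e-09) and 1.03 (SE 0.15, adjusted p = 1.33e-06). In YER138W-A 21 of 25 high-HAP1 segregants lay above every low-HAP1 one. The parents differed far more for some of these frames. The RM11 cultures stood at -8.41 and -7.66 for YMR046C. BY4716 minus RM11 was 7.52 for YBL005W-A, 4.53 for YIL082W-A and 1.78 for YER138W-A (limma adjusted p = 1.77e-05, 0.00207 and 0.018). How many copies of the elements each segregant carries was not measured. Of the mating genes, AGA1, which anchors agglutinin, was higher by 1.12 (adjusted p = 0.0332) and FUS1, of cell fusion, by 1.06 (SE 0.27, adjusted p = 0.00611). FUS1 lost its call after quantile normalization (0.77, adjusted p = 0.0542), with 43 segregants per group (0.35, adjusted p = 0.351) and when ranked on Cy5-titled and read on Cy3-titled arrays (0.77, adjusted p = 0.115). AGA1 lost its call after quantile normalization (0.83, adjusted p = 0.128) and with 43 segregants per group (0.34, adjusted p = 0.483). It also lost it when ranked on Cy5-titled arrays, with LEU2, URA3, STE2 and DSE1 as covariates, and with the stress mean as a covariate. AGA1 turned to -0.18 when the levels of STE2 and FUS1 and the stress mean were covariates, a setting chosen after the data were seen. FUS1 is itself a called mating gene, so this setting takes out any difference that AGA1 shares with FUS1.

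The largest falls outside the lists were in genes of daughter cell separation. DSE2 stood at -1.97 (SE 0.65, adjusted p = 0.0294), SCW11 at -1.74 (SE 0.50, adjusted p = 0.0132) and DSE1 at -1.69 (SE 0.54, adjusted p = 0.0249). The groups overlapped widely. The median of DSE1 was -3.725 in the high group and -0.07 in the low group, while the ranges, -5.24 to 0.27 and -4.50 to 0.52, overlapped over most of their length. With 20 segregants per group none of these 3 passed, nor with 43 per group or as a slope on HAP1 over 86 segregants. Ranked on Cy3-titled and read on Cy5-titled arrays, none of them passed either. With 43 per group DSE2 stood at -0.41, SCW11 at -0.55 and DSE1 at -0.57 (limma adjusted p = 0.642, 0.391 and 0.414). The proline permease PUT4 was at -1.25 (SE 0.38, adjusted p = 0.0199), with ranges from -0.23 to 4.59 and from -0.23 to 5.51. PLN1, the perilipin of lipid droplets, had medians of 0.29 and 1.48 and differed by -1.11 (SE 0.16, adjusted p = 1.03e-06). UBX6 differed by -0.92 and SCM4, an outer mitochondrial membrane protein, by -0.875 (SE 0.19).

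HAP1 is YLR256W, on the right arm of chromosome XII, where alleles of neighbouring genes are often inherited with it in a cross. Of 372 tested genes on this arm 68 passed, which is 18.3 percent against 17.3 percent over all genes, and 26 were higher and 42 lower. Within 30 gene numbers of HAP1, 9 of 46 passed (19.6 percent), 8 of them higher. These were ECM22, THI7, a thiamine transporter, at 0.47, CSC1 at 0.21, MAP1 at 0.27, SSP120 at 0.28 (SE 0.06, adjusted p = 0.00144), GSY2, a glycogen synthase, at 0.51, NEJ1 at 0.26 and BOP2 at 0.33. The 1 lower gene was SEC22 at -0.21. Between the parental cultures, BY4716 minus RM11, THI7 was called the opposite way (-0.63, limma adjusted p = 0.00634) and SEC22 the same way (-0.52, adjusted p = 0.0495). MAP1 at 0.36, SSP120 at 0.02 and CSC1 at -0.12 were not called between the parents. ECM22, GSY2, NEJ1 and BOP2 had too few parental values for a test. On the rest of the arm 18 of 326 tested genes were higher and 41 lower. Over all genes tested 7.44 percent were higher and 9.88 percent lower. The cause of the predominance of higher genes in the window was not tested. THI7, CSC1, GSY2, BOP2 and SEC22 each lost the call under at least 3 of 17 alternative settings. The median size of the difference was 0.0963 within this window and 0.0981 on the rest of the arm.

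**Figure D4:**
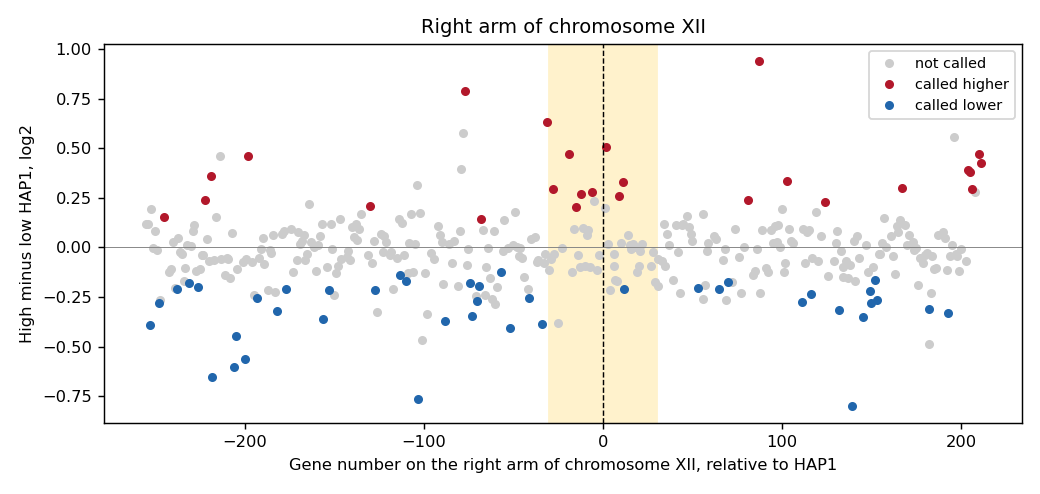
Difference between high and low HAP1 segregants (log2, vertical axis) for 372 genes of the right arm of chromosome XII against their gene number relative to HAP1 (horizontal axis); red and blue points passed at an adjusted p under 0.05, the shaded band is the window of 30 numbers to either side. In the band 8 genes passed as higher and 1 as lower, a share of 19.6 percent against 18.3 percent over the arm. Outside the band 18 of 326 genes passed as higher and 41 as lower.

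The asparaginase genes of the ASP3 repeat lie on the same arm, and their level varied widely among the segregants. ASP3-3 ran from -8.195 to 0.78 in the high group and from -9.65 to 0.37 in the low group, with medians of -0.14 and 0.09. Its difference was -0.34 (SE 0.95, adjusted p = 0.831), and the lowest values of both groups lay far below their medians.

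The genes whose pattern was most like that of HAP1 were taken by Pearson r over segregants with a value. They were YER138W-A (r = 0.706, n = 86), YLR225C (r = 0.679, n = 85), PAU11 (r = 0.630, n = 83), YDR034C-A (r = 0.624, n = 83) and ECM5 (r = 0.611, n = 83). All values of a segregant share its 2 arrays. YLR225C lies 31 gene numbers from HAP1, just outside the window above, and ran from -0.54 to 0.78 in the high group and from -1.07 to -0.05 in the low group. The most negative r among genes with at least 80 values was that of HMG1 (r = -0.735, n = 86), a choice made after the values were seen.

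Strain markers and lists of growth state were set beside these results. LEU2 had medians of -0.25 and -4.63 with nearly the same ranges, from -6.335 to 0.95 and from -5.73 to 0.68, and its difference of 0.37 had an adjusted p of 0.752. URA3 at -0.51, HO at -0.60, the mating genes STE2 at 0.27, STE3 at 0.72 and SAG1 at 1.09, AMN1 at -0.37 and GPA1 at 0.20 did not pass either. LYS2 and AGA2 had too few values for a test. Of 23 general stress genes 6 were higher and 0 lower, and the mean over the list averaged -0.00413 ± 0.90 (SD, n = 25) in the high group and -0.399 ± 0.91 (SD, n = 25) in the low group. Its medians were 0.293 and -0.627, and the groups overlapped widely. HXK1, a hexokinase chosen after its values were seen, had the largest difference of the 6, 0.96 (SE 0.19, adjusted p = 0.000445), and HSP12, a membrane heat shock protein, stood at -0.42 with an adjusted p of 0.67. Of 18 ribosome biogenesis genes 8 were lower and 0 higher.

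The stress and ribosome counts moved with these settings. Ranked on arrays of one title dye and read on the other, 1 and 1 stress genes and 2 and 0 ribosome biogenesis genes passed. In the same settings 19 and 22 ergosterol genes and 15 and 15 respiratory chain genes passed as lower. With the levels of LEU2, URA3, STE2 and DSE1 as covariates the counts were 22 ergosterol genes, 15 respiratory chain genes, 1 stress gene and 0 ribosome biogenesis genes. With the mean of the stress list as a covariate, 20 genes of ergosterol synthesis and 20 of the respiratory chain passed as lower.

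The parental cultures, which the choice of the groups did not use, were compared for the same genes. The pool of BY4716 is common to all arrays and cancels in both differences. HAP1 was higher in BY4716 than in RM11 by 1.94 (SE 0.14, 2 cultures per strain, limma adjusted p = 0.000789). In BY4716, 16 of 23 measured ergosterol genes, 17 of 19 respiratory chain genes, 14 of 14 ATP synthase genes and 10 of 10 TCA cycle genes passed as lower, and none of these lists had a member higher. Without 1 of the BY4716 cultures 199 or 203 genes were called in all, and without 1 of the RM11 cultures 1797 or 1789, against 869 with all 4. The background between parents was 26.7 percent called, 18.2 percent lower and 8.54 percent higher. CYB5 differed by -1.78, CYC7 by -1.84, YHB1 by -1.93, CYT1 by -1.815, COX5A by -1.89 and ERG25 by -1.045, BY4716 minus RM11.

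Of 573 genes called between the segregant groups and measured in both comparisons, 214 were called in the same direction between the parents, 37.3 percent of these calls and 25.3 percent of the 845 parental ones. A further 14 were called the opposite way. In the 9 lists the counts were 34 and 0 of 42. Some genes went apart. The TCA cycle had 0 calls between the segregant groups and 10 between the parents. HEM13 differed by 0.54 between the segregant groups and by 0.09 (adjusted p = 0.43) between the parents. DSE1 and DSE2 were lower in the high-HAP1 segregants and higher in BY4716, by 5.82 and 5.59. YHB1 differed by nearly as much between the segregant groups (-1.77) as between the parents (-1.93). HYP2 did so as well, at -1.04 and -1.05, whereas PUT4 stood at -1.25 and -5.07.

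**Figure D5:**
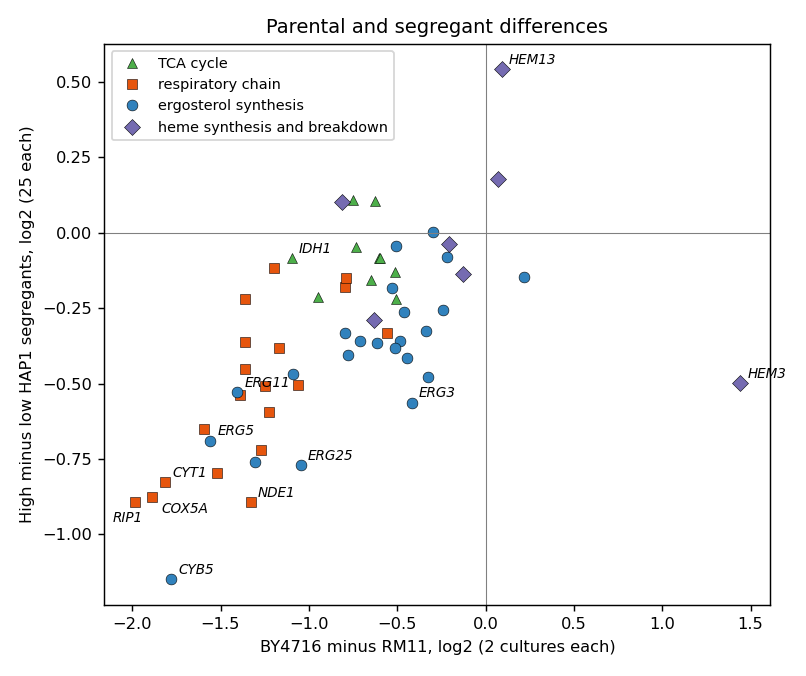
Difference between the parents (BY4716 minus RM11, log2, 2 cultures each, horizontal axis) and between the segregant groups (high minus low HAP1, log2, 25 each, vertical axis) for members of 4 gene lists measured in both. Respiratory chain and ergosterol genes lie mostly at lower left, whereas TCA cycle genes spread along the parental axis with segregant differences between -0.221 and 0.108.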

How the data were processed

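The deposited values are log ratios of culture over a BY4716 pool, taken here as log2, since no source used here names the base. The lowest would mean 2482-fold on the log2 scale but 78991-fold in natural log units, over the 65536 steps of a 16-bit scan. Array medians lay between -0.0632 and 0.0735. Background correction, filter and dye normalization are not given in the sources used here, and intensities were not used, so precision rests on the number of arrays. An array held 3769 to 6570 values.

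Of 7085 probes 5645 had 1 gene symbol, all matched to RefSeq (assembly R64), and 1440 had none. Probes of a gene were averaged (5605 genes). A culture value needed both arrays. Genes with values in at least 20 of 25 segregants per group were tested with limma 3.58.1 in R 4.3.3 without covariates. Parents were compared likewise. Tests were checked on simulated data. Genes named in the text are HAP1, the 15 largest rises and falls, called members of the lists, called neighbours within 30 numbers, strain markers, the 5 genes most like HAP1 and a few fixed targets. The groups, lists and this rule were chosen with earlier results of these data known. Alternatives covered scaling, single dyes, group size, a slope on HAP1, missing values, covariates, title numbers and weights.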

Additional observations from a re-analysis of the deposited data

Results flagged for a closer look

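Probes without a gene name entered no comparison above. Fitted in the same way, 37 of the 370 that had enough values passed between the high and low HAP1 segregants, 20 higher and 17 lower, or 10.0 percent against 17.3 percent of the named genes. The largest difference among them was 1.06 log2 units in size. They stand here because they lie outside the main measurement, and their part in the results was not tested.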

How the results depend on the processing

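Of 17 alternative settings, 3 (either array, discordant arrays left out, and STE2, FUS1 and stress as covariates) were chosen after the data were seen. The 857 calls (368 higher, 489 lower, 68 on the right arm of chromosome XII) became 495 (204, 291) ranked on Cy3-titled and read on Cy5-titled arrays, and 391 (199, 192, 31 on the arm) the other way round. They were 406 (171, 235, 39) with 43 segregants per group, 1411 (557, 854, 103) as a slope on HAP1 over 86 segregants, and 376 (146, 230, 28) among genes with no missing value, where fewer genes were tested, 33 list members were called and 6 respiratory chain genes were lower. With LEU2, URA3, STE2 and DSE1 as covariates they were 374 (166, 208, 35), and with STE2, FUS1 and the stress mean 300 (133, 167, 21). Apart from the filter for genes with no missing value, the cause was not tested. Median centring gave 419 higher and 409 lower. Without that filter, 56 to 69 members of the 9 lists, 19 to 22 ergosterol genes and 15 to 20 respiratory chain genes passed. Of 97 named genes with a test, 65 kept their call in each setting that tested them. AGA1 reversed to -0.18 with STE2, FUS1 and the stress mean as covariates, where any difference shared with FUS1 is taken out. ERG12 lost its call after median centring, ranked on Cy3-titled arrays, with either stress covariate and without discordant arrays. Between parents 869 genes were called, 199 to 1797 with 1 culture left out, and 214 in both comparisons became 79 to 399, with the spread of the single remaining culture taken from the other strain. With the parental culture number as a replicate block the counts were 830 and 217; deviations of same-numbered cultures correlated with r = 0.189 over 2 pairs, which is too few to tell whether the numbers pair the cultures, and no label says that they do. HAP1 on the other arrays differed by 1.11 to 1.24 under the 2 alternatives run for it, median centring and 20 segregants per group.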

Other observations

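Of 13 genes of peroxide and superoxide defence 3 were higher in the high-HAP1 segregants, CCS1 and TRX2 by 0.27 and TSA2 by 0.31, and SOD2, the mitochondrial superoxide dismutase, was lower (log2 -0.48, limma adjusted p = 0.00557). Of 11 tested genes of the iron regulon 1 was higher, the siderophore transporter ENB1 by 0.50, and 1 lower, the iron permease FTR1 (log2 -0.55, adjusted p = 0.0115). The background for both lists is 17.3 percent of all genes tested. The share of the iron list lies near it and is not read as a result about iron uptake. MIC26, a subunit of the inner membrane organising complex, has the systematic name next to that of YHB1 (YGR235C and YGR234W). It differed by -0.70 (SE 0.09, adjusted p = 5.69e-08). Over the 32 chromosome arms the share of genes called ran from 11.3 percent on the left arm of chromosome I to 29.6 percent (16 of 54, 11 higher and 5 lower) on the left arm of chromosome XII, the other arm of the chromosome that holds HAP1. The right arm ranked 15 of 32. Next after the left arm of chromosome XII came the left arms of chromosomes II and III, with 26.7 and 26 percent. A part of the position of HAP1 in these shares was not tested.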
